A study of Mus musculus with 6 samples.

Results

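The HOXA genes form a cluster of homeobox transcription factor genes on mouse chromosome 6, and they are the genes whose expression MLL fusion proteins sustain in leukemia. All probe sets annotated to one of 9 symbols, Hoxa2, Hoxa3, Hoxa4, Hoxa5, Hoxa6, Hoxa7, Hoxa9, Hoxa10 and Hoxa11, were taken. They numbered 15 of the 34958 probe sets with 1 gene symbol and covered 8 of 18194 genes. Hoxa6 was not analysed here. Expression had been measured on 6 arrays of mouse leukemias of the C57BL/6 strain, in 2 groups of 3 independent leukemias each. In the Runx1-KO group the Runx1 gene had been excised, and in the Control group it was intact. Bone marrow cells of both groups carried MLL-ENL, in which the N-terminal part of MLL is joined to the elongation factor ENL, delivered by transduction, and the leukemias arose in congenic recipients and were collected when the mice were moribund. The recombinase, the excised part of Runx1, the age and sex of the mice and any separation from recipient cells are not given in the sources used here. The comparison asked whether loss of Runx1 altered expression in leukemias that all carried MLL-ENL.

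HOX proteins bind DNA through a homeodomain, mostly together with PBX and MEIS partners, and give cells positional identity in the embryo. In blood the central and posterior HOXA genes are active in stem and progenitor cells and are shut off as myeloid cells mature. MLL fusions recruit elongation factors and the H3K79 methyltransferase DOT1L to the cluster, and HOXA9 with MEIS1 is a well-known driver of this kind of leukemia.

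The array values were linear intensities, and the brightest of 27 spike-in control probe sets that had no RNA to bind set each array's background limit. The limits ran from 17.0 to 19.6 in Runx1-KO and from 14.1 to 22.5 in Control. Over probe sets, Spearman correlations were 0.942 to 0.961 among Runx1-KO arrays and 0.961 to 0.969 among Control arrays, with 0.944 to 0.959 for pairs across groups. Runx1 itself had an intensity of 1128, 1573 and 1629 in the 3 Runx1-KO arrays and of 680.3, 1021 and 850.0 in the 3 Control arrays on its brightest probe set. Each of its 6 probe sets gave more signal under the Runx1-KO label than under Control, 1.70-fold to 3.18-fold as much, with 5 of them without overlap and 0 past the test (limma adjusted p from 0.194 to 0.451). The signal of the targeted gene thus ran against the labels throughout. Where these probes lie relative to the excised part is not given, so the labels were not checked by it, and Runx1-KO and Control in every direction given here mean the arrays so labelled. Eif2s3y, a Y-linked gene, stood at 3.98 to 6.31 in Runx1-KO and at 638.0 to 706.7 in Control, so sex and genotype cannot be told apart in any comparison. Gapdh probes at the 3′ end exceeded those at the 5′ end 7.10-fold in Runx1-KO 1, a sign of more degraded RNA, and 2.67-fold to 3.02-fold in the other 5 arrays.

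The HOXA cluster was active in both groups. All 8 genes from Hoxa2 to Hoxa11 lay above the background limit on all 6 arrays by their brightest probe set, and Hoxa13, the last gene of the cluster and not among the members, lay above it on 1 array. With Hoxa13 counted, 8 of 9 measured HOXA genes, or 88.9%, were above the limit on all 6 arrays. The same held for 2 of the 24 measured genes of the HOXB, HOXC and HOXD clusters, or 8.3%, and for 9703 of 18194 genes, or 53.3%. The 2 genes were Hoxb4, a regulator of stem cell expansion, and Hoxc6. Hoxb4 stood at 160.6, 54.0 and 131.9 in Runx1-KO and at 102.6, 76.0 and 77.3 in Control. Hoxc6 stood only just above background, at 23.1 to 32.4 in Runx1-KO and 22.3 to 24.5 in Control. Another 17 of the 24 genes lay below the limit on every array. Signal strength depends on the probes, so levels are compared between arrays within a probe set and not between genes.

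**Figure D1:**
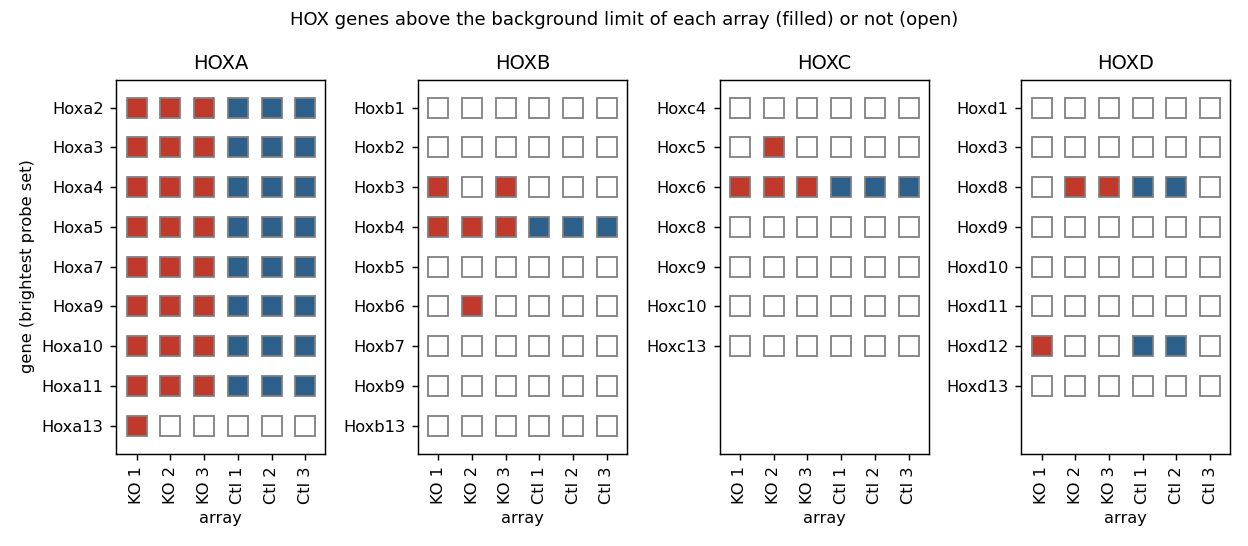
Genes of the 4 HOX clusters (rows, brightest probe set of each) by array (columns, Runx1-KO at left and Control at right), filled where the intensity lay above that array's background limit and open where it did not. The 8 HOXA genes from Hoxa2 to Hoxa11 are filled on all 6 arrays, as are Hoxb4 and Hoxc6, Hoxa13 is filled only in Runx1-KO 1, and 17 of the 24 genes of the other clusters are open throughout.

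No HOXA probe set passed the test between the groups. Of 15 probe sets, 0 had a limma adjusted p under 0.05, against 0.0858% of all probe sets (12 higher and 18 lower in Runx1-KO). Those lower included probe sets of the Y-linked genes Eif2s3y, Kdm5d and Uty, by which sex and group coincide, and these count in that share. The lowest adjusted p of the HOXA probe sets was 0.281. At an unadjusted p under 0.05 there was 1 of 15, against 12.3% of all probe sets, which is near the background. In 3 of 15 probe sets, 1 each of Hoxa2, Hoxa9 and Hoxa11, every Runx1-KO array exceeded every Control array, as in 8.64% of all probe sets, and the reverse held for 0 of 15, against 11.8% of all probe sets. By their brightest probe set 7 of 8 genes had a positive log2 difference, Runx1-KO minus Control, and Hoxa3 had a negative one. Of all 15 probe sets 13 were positive, where 48.5% of the whole table were. Of the 12 above background on all 6 arrays 10 were positive, where 43.4% of all such probe sets were. The median log2 difference over the 8 genes was 0.28, against -0.06 over all genes above background on all 6 arrays and -0.01 over all genes. The genes share arrays and a chromosome domain, so they are not independent of each other. The smallest absolute log2 difference among the probe sets that were called anywhere in the table was 1.92, and the differences of the HOXA genes ran from -0.19 to 0.77.

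**Figure D2:**
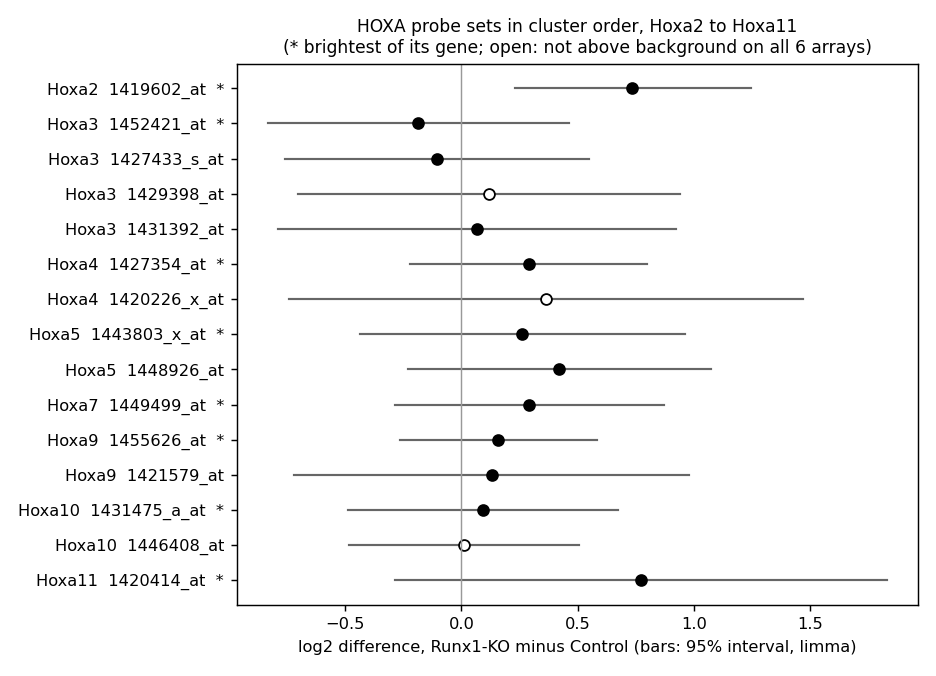
Log2 difference, Runx1-KO minus Control, of the 15 HOXA probe sets in cluster order from Hoxa2 (top) to Hoxa11 (bottom). Points are limma estimates and bars 95% intervals over 3 arrays per group, open points mark probe sets not above background on all 6 arrays, and only the bar of Hoxa2 lies wholly above 0.

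The members lie side by side on the reverse strand of chromosome 6, from 52162417 to 52245810 in GRCm38.p6, a stretch of 83.4 kb with Hoxa2 at one end and Hoxa11 at the other. Hoxa2, Hoxa3 and Hoxa4 are the anterior genes, which pattern the hindbrain, pharyngeal arches and neck in the embryo. Hoxa2 (chromosome 6, 52162417 to 52164831) is known for the identity of the second pharyngeal arch. It had intensities of 59.6, 54.9 and 42.7 in Runx1-KO and of 31.0, 32.7 and 29.8 in Control. All 3 Runx1-KO arrays thus lay above all 3 Control arrays, and every one lay above its background limit, although these are low intensities. The log2 difference was 0.74 ± 0.21 (SE, n = 3 per group), or 1.67-fold, with a 95% interval of 1.17-fold to 2.37-fold and a limma adjusted p of 0.281. With 16 added to each intensity before the log, the difference was 0.53.

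Because Hoxa2 had the lowest p of the members, its promoter, as RefSeq places it in GRCm38.p6, is shown from 250 bases before to 50 after the annotated start (chr6:52164782-52165081, reverse strand, 5′ to 3′). Capitals mark matches to 2 of 3 motifs searched on both strands, ATCAATCA, the reverse complement of the PBX-HOX motif TGATNNAT, and TGACAG, the MEIS motif. They do not overlap each other.
Hoxa2: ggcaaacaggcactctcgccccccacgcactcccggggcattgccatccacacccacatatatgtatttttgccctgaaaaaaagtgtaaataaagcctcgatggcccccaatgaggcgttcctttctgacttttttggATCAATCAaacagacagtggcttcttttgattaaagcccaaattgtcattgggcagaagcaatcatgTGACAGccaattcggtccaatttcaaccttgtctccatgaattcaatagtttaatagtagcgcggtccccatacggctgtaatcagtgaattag
The PBX-HOX match begins 111 bases before the start and the MEIS match 44 bases before it. Of 32851 promoters of the same length, 8.85% held TGATNNAT and 19.2% held TGACAG on either strand. Among the 9 member promoters 1 held the PBX-HOX motif and 2 held the MEIS motif. The other MEIS match was in the promoter of Hoxa3, beginning 13 bases before its start. The RUNX motif TGTGGT, which 16.8% of promoters held, was found in 0 of the 9 promoters listed for 8 of the 9 members, and this says only that those letters are not in these windows. A match is a description of the sequence, and binding was not measured here.

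Hoxa3 (chromosome 6, 52169059 to 52213067) directs development of the thymus and parathyroid. Its annotated span of 44009 bases runs across Hoxa4, Hoxa5 and Hoxa6, so that its longer transcripts overlap those genes. On its brightest probe set it stood at 241.8, 370.2 and 224.0 in Runx1-KO and at 320.7, 351.8 and 261.6 in Control. The groups overlapped, with Runx1-KO 2 highest of all 6 arrays and Runx1-KO 3 lowest. The log2 difference was -0.19 ± 0.27, with a 95% interval of 0.561-fold to 1.38-fold (limma adjusted p = 0.815). The second brightest Hoxa3 probe set gave -0.10 ± 0.27, the third 0.07 ± 0.35 and the dimmest, which was not above background on every array, 0.12 ± 0.34. On the third, intensities of 27.9, 67.3 and 56.9 in Runx1-KO and of 44.9, 47.0 and 44.0 in Control show a single low array, Runx1-KO 1, which was also the array with the high Gapdh ratio. Without it the log2 difference of that probe set was 0.45 ± 0.19 (adjusted p = 0.369). The part of RNA quality in it was not tested.

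Hoxa4 (chromosome 6, 52189682 to 52191703) is expressed in blood progenitors. It stood at 34.9, 38.1 and 41.4 in Runx1-KO and at 37.1, 27.1 and 30.0 in Control. Control 1 lay between Runx1-KO 1 and 2, so the groups overlapped, with a log2 difference of 0.29 ± 0.21 (limma adjusted p = 0.616). Its other probe set was above background on 1 of 3 arrays in each group and is given no fold.

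**Figure D3:**
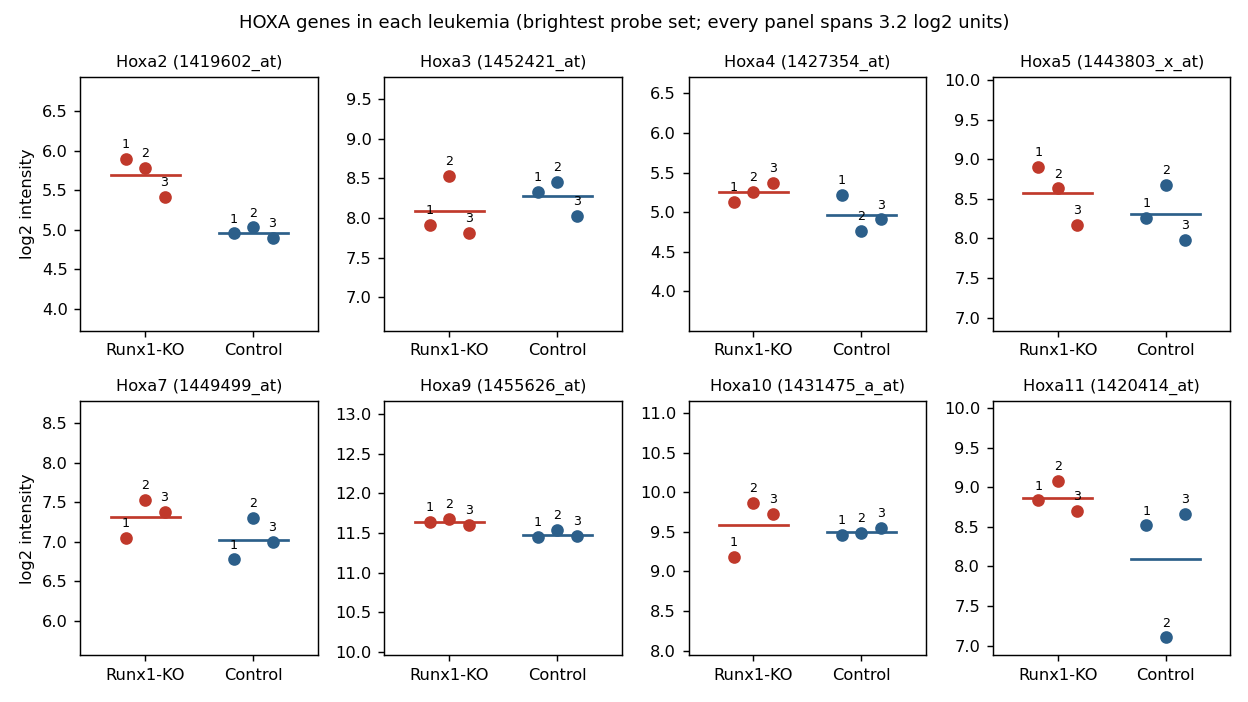
Log2 intensity of the 8 HOXA genes on each array, Runx1-KO at left and Control at right in each panel, with numbers naming the leukemia and bars the group mean. Hoxa2, Hoxa9 and Hoxa11 are the 3 of 8 genes in which every Runx1-KO point lies above every Control point (8.64% of all probe sets do so), and in Hoxa11 Control 2 lies well below the other arrays.

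Hoxa5 and Hoxa7 stand in the middle of the cluster. Hoxa5 (chromosome 6, 52201754 to 52204587) is needed for lung and skeletal patterning and favours myeloid over erythroid fate in human progenitors. Its intensity was 477.2, 396.5 and 288.1 in Runx1-KO and 305.3, 408.7 and 253.4 in Control. The groups overlapped and each spread over more than 100 intensity units, with Runx1-KO 3 and Control 3 lowest in their groups. The log2 difference was 0.26 ± 0.29, with a 95% interval of 0.739-fold to 1.95-fold (limma adjusted p = 0.752). The second probe set gave 0.42 ± 0.27 (adjusted p = 0.567) and kept the same order within Control, although Runx1-KO 1 and 2 were level at 421.1 and 421.0.

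Hoxa7 (chromosome 6, 52215623 to 52218573) is a target of MLL fusions together with Hoxa9. Hoxa7 stood at 132.4, 184.2 and 166.7 in Runx1-KO and at 109.7, 157.8 and 127.7 in Control. Each Runx1-KO array lay above the Control array of the same rank, but the groups overlapped between 132.4 and 157.8. Runx1-KO minus Control came to 0.29 ± 0.24 on the log2 scale, with a 95% interval of 0.821-fold to 1.83-fold (limma adjusted p = 0.655).

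Hoxa9, Hoxa10 and Hoxa11 are the posterior members, related to the Drosophila gene Abdominal-B. Hoxa9 (chromosome 6, 52223097 to 52227370), which promotes self-renewal of progenitors and is the best-known leukemia gene of the cluster, was the most tightly measured member. Its intensity was 3185, 3282 and 3114 in Runx1-KO and 2790, 2971 and 2820 in Control. The SD within groups was 0.04 and 0.05 on the log2 scale, and all Runx1-KO arrays lay above all Control arrays. The log2 difference was 0.16 ± 0.18, or 1.12-fold, with a 95% interval of -0.27 to 0.58 on the log2 scale (limma adjusted p = 0.752). The standard error is larger than the spread of these 6 values alone would give, since limma draws each variance towards that of the whole table. With the unmoderated statistic the standard error was 0.04 and the adjusted p 0.283. The second Hoxa9 probe set stood at 247.5, 567.9 and 345.4 in Runx1-KO and at 266.6, 396.0 and 351.0 in Control. Here the groups overlapped and the log2 difference was 0.13 ± 0.35, which was 0.41 without Runx1-KO 1, -0.19 without Runx1-KO 2 and -0.03 without Control 1. Both probe sets thus gave small differences, and the direction of the dimmer one rested on single arrays.

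The annotated promoters of Hoxa9 (chr6:52227321-52227620) and Hoxa11 (chr6:52245761-52246060), from the same RefSeq table and build, reverse strand, 5′ to 3′, are shown because these genes are the other members whose groups did not overlap. Neither holds any of the 3 motifs, so no base is capitalised.
Hoxa9: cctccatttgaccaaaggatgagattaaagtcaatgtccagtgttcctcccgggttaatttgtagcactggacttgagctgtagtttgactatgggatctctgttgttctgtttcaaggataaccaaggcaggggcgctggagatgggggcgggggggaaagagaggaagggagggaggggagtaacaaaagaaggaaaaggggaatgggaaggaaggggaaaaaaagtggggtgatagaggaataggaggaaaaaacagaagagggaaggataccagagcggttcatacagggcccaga
Hoxa11: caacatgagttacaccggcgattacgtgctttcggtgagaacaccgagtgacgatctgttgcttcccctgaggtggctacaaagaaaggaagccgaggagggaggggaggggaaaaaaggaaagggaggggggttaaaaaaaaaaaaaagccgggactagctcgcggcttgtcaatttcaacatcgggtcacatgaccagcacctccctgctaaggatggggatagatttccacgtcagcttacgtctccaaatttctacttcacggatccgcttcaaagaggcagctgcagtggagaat
The windows differ in base composition. GC content was 49.7% for Hoxa9, 51.0% for Hoxa11 and 45.7% for Hoxa2, against a median of 52.7% over all promoters, and CpG dinucleotides stood at 0.28, 0.79 and 0.59 of the number that base composition gives, against a median of 0.38. Over all 9 member promoters GC content ran from 45.7% to 64.0%, highest at Hoxa3, and the CpG ratio from 0.28 at Hoxa9 to 1.02 at Hoxa5.

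Hoxa10 (chromosome 6, 52231197 to 52240854) regulates myeloid progenitor expansion and, outside blood, uterine development. Its brighter probe set stood at 581.4, 934.2 and 845.4 in Runx1-KO and at 706.3, 717.0 and 746.9 in Control. The Control arrays were close together, whereas the Runx1-KO arrays lay on both sides of them, with Runx1-KO 1 lowest of all 6. For Hoxa10 the log2 difference was 0.09 ± 0.24, with a 95% interval of 0.714-fold to 1.59-fold (limma adjusted p = 0.903). Leaving out Runx1-KO 1 gave 0.30 ± 0.19 (adjusted p = 0.504). Leaving out Runx1-KO 2 gave -0.04 ± 0.24 (adjusted p = 0.956). The other Hoxa10 probe set was below background on all 6 arrays.

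Hoxa11 (chromosome 6, 52242105 to 52245810), known for limb and uterine development, had the largest difference and the widest interval of the 8 genes. Its intensity was 455.9, 538.7 and 415.2 in Runx1-KO and 366.1, 137.5 and 406.2 in Control. Control 2 was far below the other arrays, and Control 3 came within 10 intensity units of Runx1-KO 3. The log2 difference was 0.77 ± 0.44, or 1.71-fold, with a 95% interval of 0.819-fold to 3.56-fold (limma adjusted p = 0.522). Without Control 2 it was 0.28 ± 0.25 (adjusted p = 0.762), so that array set most of its size. The antisense transcript gene Hoxa11os overlaps the start of Hoxa11, and its brighter probe set differed by -0.04 ± 0.25 (adjusted p = 0.964).

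**Figure D4:**
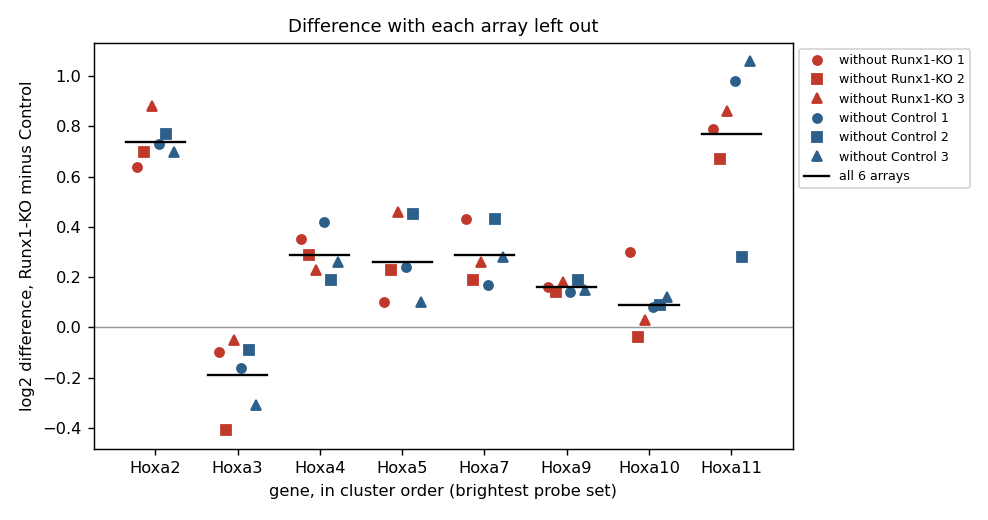
Log2 difference, Runx1-KO minus Control, of the 8 HOXA genes (x axis, cluster order) with all 6 arrays (black bars) and with each array left out (red symbols for a Runx1-KO array, blue for a Control array). Hoxa9 stays between 0.14 and 0.19, Hoxa11 ranges from 0.28 without Control 2 to 1.06 without Control 3, and Hoxa10 crosses 0 without Runx1-KO 2.

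The members did not vary as 1 block across leukemias. Runx1-KO 2 was the highest of the 6 arrays for 5 of the 8 genes (Hoxa3, Hoxa7, Hoxa9, Hoxa10 and Hoxa11), Runx1-KO 1 for 2 (Hoxa2 and Hoxa5) and Runx1-KO 3 for Hoxa4, and no Control array was highest for any of the 8. The lowest value was in a Runx1-KO array for Hoxa3 and Hoxa10 and in a Control array for the other 6 genes. Within Control, Control 2 was highest for 5 genes and yet lowest for Hoxa4 and Hoxa11. Across the 6 arrays the Pearson correlation of log2 level with Hoxa9 was 0.932 for Hoxa2, 0.764 for Hoxa7 and 0.638 for Hoxa5, but 0.263 for Hoxa10 and -0.019 for Hoxa3. These are descriptions over 6 arrays that share a group difference. Among 9702 other genes above background on all 6 arrays, the 5 with the highest correlation to Hoxa9 were Chst11 (0.993), Nr2c2 (0.990), Celsr3 (0.986), Fam120c (0.984) and Cops8 (0.983), and Hoxa2, the closest member, came 87th.

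Genes next to the cluster were measured as well. Of 11 neighbours listed 6 were measured, 0 passed in either direction, 0 had an unadjusted p under 0.05 and the median log2 difference was 0.05. Skap2, an adaptor protein gene on the Hoxa2 side, stood at 2430, 2301 and 2429 in Runx1-KO and at 2808, 2600 and 2798 in Control. All its Runx1-KO arrays lay below all Control arrays, which held for 1 of the 6 neighbours and for 11.8% of all probe sets. The log2 difference of Skap2 was -0.20 ± 0.18 (limma adjusted p = 0.691). Hibadh, a valine catabolism enzyme gene on the Hoxa11 side, differed by -0.37 ± 0.32 (adjusted p = 0.676), Snx10 by 0.14 ± 0.32 (adjusted p = 0.889) and Tax1bp1 by -0.04 ± 0.22 (adjusted p = 0.962). Hoxa13 was above background only in Runx1-KO 1, and Evx1 beyond it on no array.

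Among the partners of HOX proteins, 0 of 10 measured MEIS and PBX cofactor genes passed in either direction, with a median log2 difference of -0.10. An unadjusted p under 0.05 was found in 2 of 10, against 12.3% of all probe sets. They were Pbx3 and Pknox2, and Pknox2 was above background on 1 of 3 Runx1-KO arrays and 0 of 3 Control arrays. Pbx3, whose product binds DNA with HOXA9, stood at 88.7, 44.2 and 50.2 in Runx1-KO and at 113.4, 150.5 and 158.2 in Control, without overlap. Its log2 difference was -1.26 ± 0.32 (limma adjusted p = 0.246). In 3 of 10 cofactor genes every Runx1-KO array lay below every Control array, against 11.8% of all probe sets. The reverse held for 0 of 10, against 8.64%. Meis1, the HOXA9 partner, stood at 154.7, 365.0 and 219.8 in Runx1-KO and at 145.2, 204.5 and 141.1 in Control. Those groups overlapped and the log2 difference was 0.52 ± 0.36 (adjusted p = 0.594). Pbx4 (-0.43 ± 0.22) and Tgif1 (-0.41 ± 0.25) did not pass either.

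The chromatin regulators that open or silence the cluster gave 0 of 24 past the test, with a median log2 difference of -0.04. An unadjusted p under 0.05 was found in 4 of 24, against 12.3% of all probe sets. The super elongation complex scaffold genes had the lowest p. Aff4 stood at 638.5, 791.7 and 660.9 in Runx1-KO and at 420.0, 418.4 and 411.7 in Control (log2 difference 0.74 ± 0.19, limma adjusted p = 0.250), and Aff1 differed by 0.66 ± 0.18 (adjusted p = 0.276). Kdm6b, an H3K27 demethylase gene, differed by 0.66 ± 0.20 (adjusted p = 0.294). Ezh2, the H3K27 methyltransferase gene that acts against HOX expression, stood at 590.6, 110.4 and 214.6 in Runx1-KO and at 663.2, 719.2 and 619.5 in Control, a log2 difference of -1.47 ± 0.59 (adjusted p = 0.392). Runx1-KO 2, the array with the lowest Ezh2, was the highest of all 6 for 5 HOXA genes. Runx1-KO 3, with the next lowest Ezh2, was the lowest of its group for 5 HOXA genes. Runx1-KO 1, with the highest Ezh2 of its group, was the highest of all 6 for 2 HOXA genes. A relation between Ezh2 and the HOXA genes was not tested.

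Genes listed as targets of HOXA9 and MEIS1 gave 0 of 17 past the test (6 at an unadjusted p under 0.05) and a median log2 difference of -0.22, with 7 positive and 10 negative. In 7 of 17 all Runx1-KO arrays lay below all Control arrays, against 11.8% of all probe sets, and in 2 of 17 all lay above, against 8.64%. An unadjusted p under 0.05 was found in 12.3% of all probe sets. These shares include probe sets below background, so they are not matched to this list in signal. Bcl2, a survival gene, stood at 649.1, 255.0 and 315.8 in Runx1-KO and at 840.8, 868.0 and 1192 in Control (log2 difference -1.35 ± 0.39, limma adjusted p = 0.282). Id2, an inhibitor of basic helix-loop-helix factors, stood at 448.8, 1178 and 616.0 in Runx1-KO and at 365.7, 150.5 and 227.3 in Control (1.57 ± 0.47, adjusted p = 0.296). Dnajc10, a chaperone gene, differed by -0.91 ± 0.20 (adjusted p = 0.212) and Ptpn6, the phosphatase SHP-1 gene, by -0.64 ± 0.21 (adjusted p = 0.320). The target genes thus lay on both sides of 0, and 13 of the 17 were above background on all 6 arrays. The list was not divided into genes raised and genes lowered by HOXA9. A relation to the HOXA differences, none of which passed, was not tested.

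**Figure D5:**
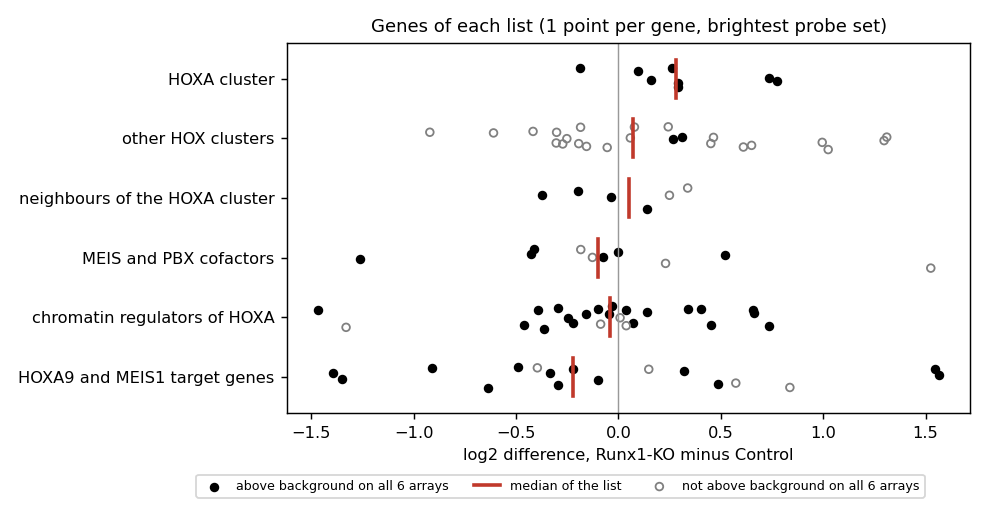
Log2 difference, Runx1-KO minus Control, of each gene in the HOXA cluster and in 5 related lists, with 1 point per gene, filled where it was above background on all 6 arrays, and a red bar at the list median. The HOXA median is 0.28, the medians of the other lists run from -0.22 to 0.07, and the points of every list lie on both sides of 0.

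Markers of the cells in the samples were set beside these values. All 10 myeloid leukemia markers lay above background on all 6 arrays, with 0 of 10 past the test (1 at an unadjusted p under 0.05). The mature neutrophil markers had positive log2 differences in 7 of 7 measured genes, with a median of 1.47, and their summed intensity ran from 3963 to 5492 in Runx1-KO and from 1590 to 2504 in Control. Of these 7 genes 0 passed (lowest limma adjusted p = 0.0575). An unadjusted p under 0.05 was found in 6 of them and in 12.3% of all probe sets. Above background on all 6 arrays were 6 of the 7, and Cxcr2 exceeded it in 3 of 3 Runx1-KO arrays and 1 of 3 Control arrays. The 8 stromal and endothelial markers summed to 189.8 to 203.8 in Runx1-KO and to 176.7 to 383.9 in Control, and 3 of them were below background on every array. Erythroid markers summed to 49.4 to 173.7 in Runx1-KO and to 81.8 to 3843 in Control, with Control 1 highest. The 5 T cell markers, all with negative log2 differences, summed to 46.5 to 83.0 in Runx1-KO and to 92.9 to 170.1 in Control. B cell markers summed to 150.5 to 276.2 in Runx1-KO and to 163.1 to 228.2 in Control. Only 1 of 5 T cell, 2 of 5 B cell and 0 of 5 erythroid markers were above background on all 6 arrays. The T cell markers Cd3d, Cd3e, Cd3g and Cd5 exceeded it on no Runx1-KO array. In Control, Cd3d exceeded it on 1 of 3 arrays and Cd3e, Cd3g and Cd5 on 2 of 3. An unadjusted limma p under 0.05 was found in 3 of 5 T cell markers, against 12.3% of all probe sets. In 3 of 5 every Runx1-KO array lay below every Control array, against 11.8% of all probe sets. The part of cell composition in the HOXA values was not tested, and in bulk RNA fewer cells of a type and less RNA per cell cannot be told apart.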

How the data were processed

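The deposited table held linear intensity values for 45101 probe sets of a 1-colour Affymetrix mouse array, with array medians of 24.4 to 26.0. The authors' methods of probe summary, background correction and normalization are not stated in the labels. RNA had been labelled with biotin, per the labels' protocols. All 6 columns were mapped to samples. Of the probe sets, 34958 had 1 symbol, 932 several and 9211 none, and comparing symbols with RefSeq's through Entrez numbers changed 0. The 1 value below 1 was set to 1. limma 3.58.1, run under R 4.3.3, gave two-sided moderated tests (lmFit, eBayes) of log2 intensity without covariates or filtering on all 34958 probe sets, with Benjamini-Hochberg adjustment at 0.05 over all of them. The script was tested on simulated data. A gene was represented by its probe set of highest mean, with the others beside it. Shares of all probe sets were taken above background or not, whereas the lists hold 1 probe set per gene.

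Named genes were all members, and of each other list genes past the threshold or else up to 4 of lowest p above background on at least 3 arrays. Some genes that this rule gave are not named here, and Pknox2, Cd3d, Cd3e, Cd3g and Cd5 were named outside it. Hoxa13, Evx1 and Hoxa11os were chosen after their values were seen, as were the checks Runx1, Eif2s3y, Kdm5d and Uty. The 5 genes most like Hoxa9 were taken by Pearson correlation. The members and lists were chosen with earlier results of these data known, and so was the background limit. Alternatives were quantile normalization, median centring, 1 probe set or the mean per gene, a filter on dim probe sets, a floor, an offset of 16, weights per array, robust fitting with a variance trend, an unmoderated statistic, a threshold of 0.1, the replicate number as a block, and leaving out arrays. The number of arrays, 3 per group, limits the precision.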

Additional observations from a re-analysis of the deposited data

How the results depend on the processing

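Under 19 alternatives 0 HOXA probe sets passed the threshold, and leaving out each array gave 0 to 0. The median log2 difference over the HOXA genes ran from 0.20 to 0.32 with single arrays left out and from 0.22 to 0.34 under the other settings. Of 152 recomputed gene differences 1 reversed its sign, Hoxa10 at -0.04 without Runx1-KO 2, and 0 passed (Hoxa10 ran from -0.04 to 0.30 with single arrays left out). Some settings cannot alter these differences, so no sign could reverse under them. These were 1 probe set per gene, the filter, the floor, the variance trend, the unmoderated statistic, the threshold of 0.1 and the block. The lowest adjusted p of any member's brightest probe set was 0.144, for Hoxa2 with dim probe sets filtered out. The count of called probe sets over the whole table was 30. It was 16 with 1 probe set per gene and 19 with the mean per gene, where fewer features were tested. It was 67 with the filter, 287 with the floor, 91 with the offset of 16, 185 with a variance trend and robust fitting, 87 with array weights and 47 at an adjusted p under 0.1. It was 0 with the unmoderated statistic, 0 without both arrays numbered 1 and 3 to 7 with single arrays left out. The cause of these shifts was not tested. With the replicate number as a block the count over the whole table was 0, the HOXA count 0 and the HOXA median 0.28. Deviations of same-numbered arrays correlated at 0.006, -0.083 and 0.036, and those of differently numbered arrays at -0.106 to 0.082. Whether same-numbered arrays share more than the number is not given in the labels. Signal near background limits Hoxa2 and Hoxa4 most, and the intervals of the 8 genes had half-widths of 0.42 to 1.06 on the log2 scale.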
